A study of Mus musculus with 6 samples.

Results

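Group 2 innate lymphoid cells, or ILC2s, reside in tissues and secrete cytokines of type 2 immunity although they carry no antigen receptor. The 8 genes described here encode secreted growth and repair factors and proteases that process some of them. They are the epidermal growth factor (EGF) family ligand Areg, the cytokines Csf2 and Lif, the transforming growth factor family ligands Tgfb1 and Bmp7, the convertase Furin and the membrane proteases Adam17 and Adam10. They were chosen by symbol, and each matched 1 of the 27179 Entrez gene IDs of the count table and passed the filter on low counts, as did 12967 genes in all. RNA was sequenced from mouse ILC2s sorted through a Chat positive or a Chat negative gate, with 3 libraries per gate. Chat encodes choline acetyltransferase, which makes acetylcholine. The labels give no strain, age, tissue, stimulus or allele for either gate, and do not say how Chat was detected. Whether the 3 samples within a gate are different animals is not said, and the p-values below therefore reflect the variation among samples, which could be technical.

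Amphiregulin, the product of Areg, is made as a membrane-anchored precursor and acts on the EGF receptor of epithelial and stromal cells once its ectodomain has been cut off, mainly by ADAM17. ILC2s are a known source of amphiregulin during repair of lung and gut epithelium. ADAM10 is the related sheddase best known for cutting Notch receptors. Furin, a protease of the secretory pathway, removes the propeptides of both ADAM proteases and of the precursors of TGF-beta 1 and BMP7. These steps link Furin, the ADAM genes, Areg, Tgfb1 and Bmp7, and do not include Csf2 or Lif. Bulk RNA cannot tell fewer cells making a transcript from less transcript per cell, and transcript levels carry no information on cleavage.

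The upstream sequences of Areg, Csf2 and Lif are shown because Areg was the gene of the 8 most divided by gate, Lif the one most divided by replicate number, and Csf2 the one with the largest difference. The windows hold the 250 bases before the RefSeq start of each gene (GRCm38.p6, the assembly behind mm10), 5' to 3' on the strand of the gene. Capitals mark matches to the CRE motif TGACGTCA, the AP-1 motif TGANTCA, the NFAT core GGAAA or the TATA motif TATAAA. All but the TATA motif were sought on both strands. The NFAT core of Lif lies on the opposite strand and so reads TTTCC. Areg lies on the plus strand, chr5:91139349-91139598, Csf2 on the minus strand, chr11:54249900-54250149, and Lif on the plus strand, chr11:4257318-4257567.
Areg: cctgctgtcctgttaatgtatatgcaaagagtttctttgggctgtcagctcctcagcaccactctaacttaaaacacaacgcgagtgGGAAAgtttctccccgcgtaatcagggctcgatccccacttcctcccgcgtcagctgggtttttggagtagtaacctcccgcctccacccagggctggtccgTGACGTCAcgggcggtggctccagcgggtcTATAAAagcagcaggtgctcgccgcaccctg
Csf2: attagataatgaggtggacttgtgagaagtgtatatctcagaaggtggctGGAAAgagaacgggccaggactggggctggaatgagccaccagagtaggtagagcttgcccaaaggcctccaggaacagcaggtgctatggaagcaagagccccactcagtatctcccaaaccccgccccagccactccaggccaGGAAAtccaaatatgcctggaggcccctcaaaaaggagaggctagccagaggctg
Lif: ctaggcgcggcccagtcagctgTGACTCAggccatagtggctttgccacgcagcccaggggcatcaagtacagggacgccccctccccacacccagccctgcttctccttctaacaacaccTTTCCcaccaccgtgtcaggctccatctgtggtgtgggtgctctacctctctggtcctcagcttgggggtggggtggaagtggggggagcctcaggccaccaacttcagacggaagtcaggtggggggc

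The Areg window held a complete CRE, the site bound by cAMP-responsive factors of the CREB family, beginning 61 bases before the start. Among all 32851 windows of this length, 1.55% held a CRE on either strand. A TATA motif on the strand of the gene began 31 bases before the Areg start, and 7.59% of windows held one. The Lif window held an AP-1 motif that began 228 bases before the start, as 6.75% of windows do, and a match to the NF-kappaB motif that began 178 bases before it, as 7.25% of windows do. The NFAT core, present in 55.6% of windows, was found in all 3, with 2 matches for Csf2. The RefSeq start of Csf2, at 54249899, lies upstream of the GENCODE start, at 54249667, so this window does not cover the bases just before the GENCODE start. Matches describe the letters and say nothing of binding in these cells. Windows existed for 7 of the 8 genes, and Bmp7 had none.

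The libraries held 37154269 to 50361306 counts, and the 8 genes had between 1005 (Csf2) and 158201 (Furin) counts in a library, so counting error is small beside the spread between libraries. Levels are CPM, which are counts scaled to a common library size, and log2 differences are Chat positive minus Chat negative. Chat checked the labels, at 188, 169 and 204 CPM in Chat positive 1, 2 and 3, against 16.5, 26.5 and 17.5 CPM in Chat negative 1, 2 and 3. All 10 ILC2 markers listed were detected, with sums of 11045 to 11286 CPM in Chat positive and 10478 to 11500 CPM in Chat negative libraries. The sums rest on a few abundant markers. Il2ra reached 296286 counts in a library, while Thy1 reached 831 and Il17rb 801 counts. The libraries with number 2 stood apart from the other 4 in both gates, along a first principal component that held 60.6% of the variance. No label says that a shared number pairs libraries across the gates, so differences by number below are descriptive. The T cell list summed to 85.3 to 161 CPM in Chat positive and 93.3 to 182 CPM in Chat negative libraries. Number 2 had the lowest sum of each gate. Trbc2 and Cd3g were the most abundant of that list, while Cd3e had at most 210, Trac 103 and Cd4 50 counts in a library. The mast cell or basophil list had larger sums, 301 to 318 CPM in Chat positive and 278 to 356 CPM in Chat negative libraries. Kit and Mcpt8 were its most abundant genes. B cell markers summed to 68.6 to 85.6 CPM in Chat positive and 66.2 to 74.2 CPM in Chat negative libraries. Stromal or endothelial markers summed to 57.9 to 96.4 CPM and 47.6 to 77.8 CPM. Myeloid markers reached at most 24.4 CPM. Whether the content of such cells differed was not tested. Because number 2 stood apart, the 8 genes are given with the value of every library. Many other genes are given as a mean ± SD, which does not show the spread between numbers.

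None of the 8 genes passed edgeR's quasi-likelihood test at an adjusted p of 0.05, and Areg was the 1 gene with an unadjusted p under 0.05. Over all 12967 genes the test called 0.00771%, which is Chat alone, and 2.43% had an unadjusted p under 0.05. DESeq2 called none of the 8 either, with 0.0308% of all genes called, and had 2 of them (Areg and Csf2) at an unadjusted p under 0.05, against 3.44% of genes. limma-voom called none of the 8 and had Areg alone at an unadjusted p under 0.05, against 2.59% of genes. The log2 difference was above 0 for 4 genes and below 0 for 4, with a median of 0.02 that lay near the 0.00 of all genes tested. Within each of the 3 replicate numbers Areg, Csf2 and Furin had the larger value in the Chat positive library, a pattern that 22.3% of genes tested had. Adam17 and Bmp7 had the smaller value there in all 3, as did 17.3% of genes.

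**Figure D1:**
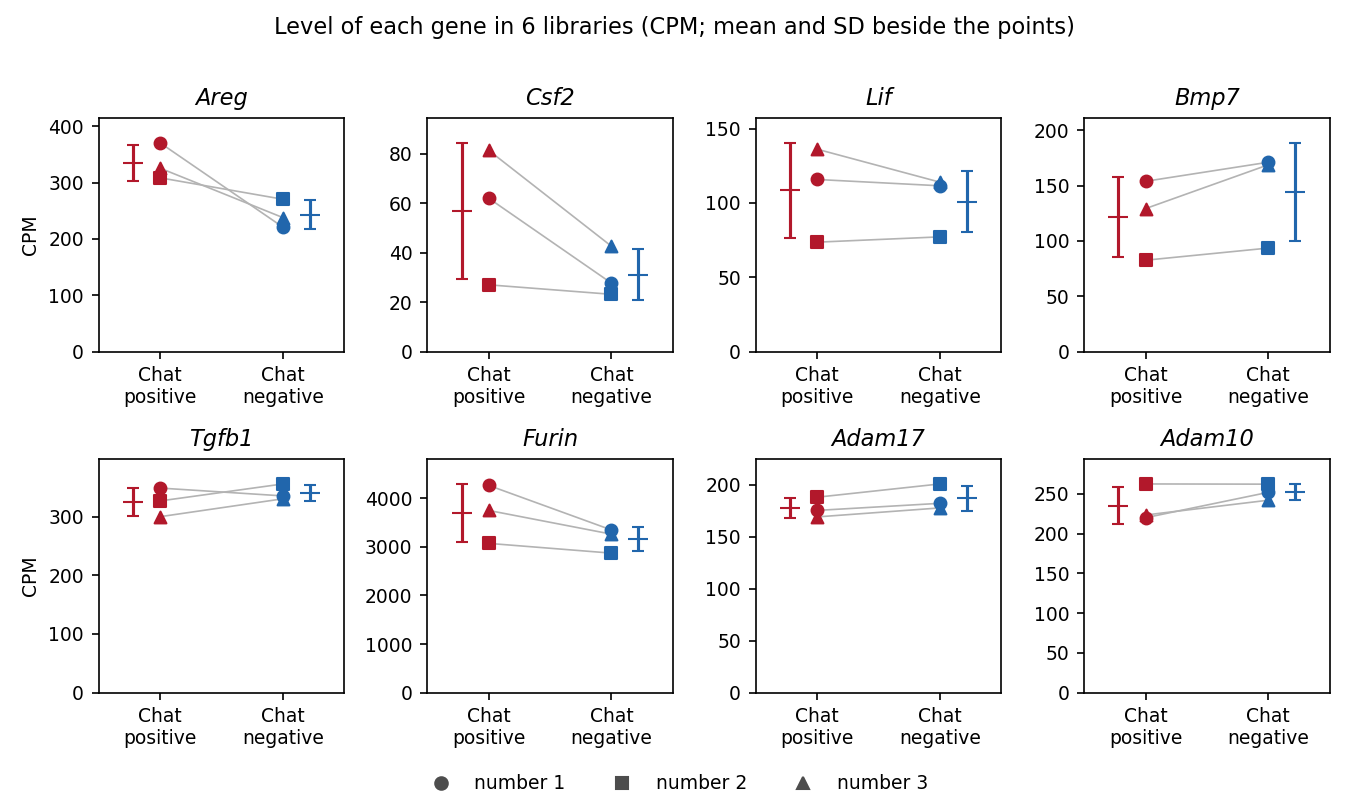
CPM of the 8 genes in each library, with Chat positive left of Chat negative, lines joining libraries with the same replicate number, and bars for mean and SD (n = 3). Areg was the only one of the 8 whose gates did not overlap, with Chat positive libraries from 309 to 371 CPM and Chat negative libraries from 221 to 271 CPM.

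Areg (Entrez 11839, mm10 chromosome 5, 91139599 to 91148432) stood at 371, 309 and 326 CPM in Chat positive 1, 2 and 3, against 221, 271 and 238 CPM in Chat negative 1, 2 and 3. Every Chat positive library lay above every Chat negative one, a separation in this direction seen for 4.53% of genes tested. The means were 335 ± 32.1 CPM in Chat positive and 243 ± 25.2 CPM in Chat negative cells (SD, n = 3 each), a 1.38-fold difference. On the log2 scale they differed by 0.46 (SE 0.12), and edgeR's adjusted p was 1.00. By number, the log2 difference was 0.75, 0.19 and 0.45 for numbers 1, 2 and 3, so it was smallest in number 2, which stood apart. Without the libraries of number 2 it was 0.60, with an edgeR adjusted p of 0.323.

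Areg also differed from the other 7 genes in how its spread was divided. Of the sum of squares of its log2(CPM + 0.5) values over 6 libraries, 80.0% lay between the gates and 0.770% between the replicate numbers. Over the genes tested, the median share was 9.63% between the gates and 67.3% between the numbers. Lif lay at the other end of the 8, with 1.55% between the gates and 94.2% between the numbers. Bmp7 was similar, with 8.54% and 89.9%, and Csf2 had 33.5% and 57.5%. These shares describe 6 libraries and carry no test.

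**Figure D2:**
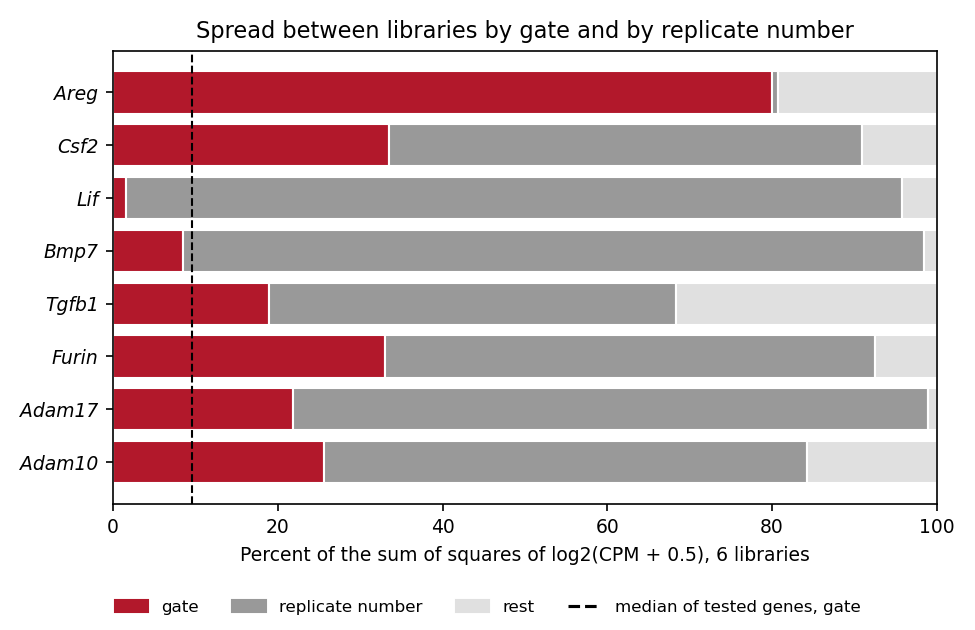
Share of each gene's sum of squares of log2(CPM + 0.5) over 6 libraries that lay between the gates, between the replicate numbers, or in neither. The dashed line marks the median gate share of the genes tested, 9.63%. Areg is at 80.0% between the gates and Lif at 1.55%.

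Areg sits in a cluster of EGF family ligand genes on chromosome 5, and its neighbours were far less abundant. Per kilobase of the longest GENCODE transcript, Areg averaged 276 CPM in Chat positive and 200.1 CPM in Chat negative cells. Ereg, which encodes epiregulin and begins 46.0 kb away at the nearest ends, averaged 0.349 CPM per kilobase in Chat positive and 0.187 CPM per kilobase in Chat negative cells. Btc, which encodes betacellulin, averaged 1.48 CPM per kilobase in Chat positive and 1.64 in Chat negative cells. Epgn, which encodes epigen, reached no more than 17 counts and was not tested.

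Ereg had 50, 76 and 60 counts in Chat positive 1, 2 and 3, against 43, 31 and 25 counts in Chat negative 1, 2 and 3. Its means were 1.44 ± 0.0764 CPM in Chat positive and 0.770 ± 0.224 CPM in Chat negative cells (SD, n = 3 each), with no overlap and an edgeR adjusted p of 1.00. Hbegf, the heparin-binding ligand, stood at 11.5 ± 3.42 CPM in Chat positive and 13.1 ± 3.89 CPM in Chat negative cells. Egf stood at 0.586 ± 0.398 CPM in Chat positive and 0.325 ± 0.121 CPM in Chat negative cells. Of the 11 EGF family ligands listed, 6 were tested, 3 lay above 0 and 3 below, and none passed.

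Receptors of the ERBB family, through which these ligands signal, were sparse in both gates. Of 6 listed genes, which include inhibitors of the receptors, 4 were tested, none passed, and 3 lay above 0. The inhibitor Errfi1 was among those above 0. Erbb2, the co-receptor of the family, stood at 2.03, 2.68 and 1.64 CPM in Chat positive 1, 2 and 3, against 1.18, 0.738 and 1.23 CPM in Chat negative 1, 2 and 3. Those gates did not overlap, at a log2 difference of 1.01 (SE 0.36, edgeR adjusted p = 1.00). Egfr, the receptor of amphiregulin itself, stood at 6.56 ± 1.77 CPM in Chat positive and 4.90 ± 0.958 CPM in Chat negative cells. Erbb3 stood at 14.9 ± 2.68 CPM in Chat positive and 16.8 ± 3.53 CPM in Chat negative cells, and Errfi1, a feedback inhibitor of the receptors, at 46.9 ± 8.78 CPM in Chat positive and 39.9 ± 8.75 CPM in Chat negative cells.

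Genes whose levels ran most like Areg over the 6 libraries were taken from the 8348 genes with a symbol and a mean of at least 10 CPM, by Pearson's r of log2(CPM + 0.5). They were Cwc15 (0.993), Smim11 (0.991), Cope (0.979), Il13 (0.979) and Golga5 (0.978). With 6 libraries and this many genes searched, such values describe likeness and are given without a test. Il13, the type 2 cytokine that drives mucus production, stood at 423 ± 43.6 CPM in Chat positive and 298 ± 27.5 CPM in Chat negative cells (SD, n = 3 each). The other 4 differed less between the gates, with log2 differences of 0.13 (Cope) to 0.21 (Golga5).

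Adam17 and Adam10, the sheddases, differed little between the gates. Adam17 (Entrez 11491, chromosome 12, 21323509 to 21373632) stood at 175, 188 and 169 CPM in Chat positive 1, 2 and 3, against 182, 201 and 178 CPM in Chat negative 1, 2 and 3. It was highest in number 2 in both gates, as 31.2% of genes tested were, and the gates overlapped although each number was lower in Chat positive cells. Its log2 difference was -0.07 (SE 0.10), and 77.2% of its squares lay between the numbers. Adam10 (Entrez 11487, chromosome 9, 70678944 to 70780229) stood at 219.9, 262 and 223 CPM in Chat positive 1, 2 and 3, against 252, 262 and 242 CPM in Chat negative 1, 2 and 3. Its log2 difference was -0.10 (SE 0.11), and the difference within number 2 was 0.00. Of the exons of Adam17, 311 bases are shared with Iah1 on the opposite strand, and since the strand setting of the counting is not given, reads there cannot be told apart.

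The ratio of Adam17 to Adam10 CPM within a library does not depend on how libraries are scaled. It was 0.798, 0.717 and 0.757 in Chat positive 1, 2 and 3, against 0.724, 0.766 and 0.735 in Chat negative 1, 2 and 3 (two-sided exact permutation p = 0.7, n = 3 each). The ratio of Areg to Adam17, substrate to main sheddase, was 2.11, 1.64 and 1.93 in Chat positive 1, 2 and 3, against 1.21, 1.35 and 1.34 in Chat negative 1, 2 and 3. These did not overlap (two-sided exact permutation p = 0.1, n = 3 each), and 0.1 is the smallest p that 3 against 3 allows.

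Regulators of the sheddases, such as the iRhom proteins that carry ADAM17 to the cell surface and the tetraspanins that carry ADAM10, had 10 of 12 listed genes tested. None passed, 3 lay above 0 and 7 below, and the median log2 difference was -0.12. Tspan5, one of the ADAM10 tetraspanins, stood at 32.5, 29.7 and 30.4 CPM in Chat positive 1, 2 and 3, against 46.9, 32.9 and 39.1 CPM in Chat negative 1, 2 and 3. Pacs2, a sorting adaptor that returns ADAM17 to the surface, stood at 20.7 ± 2.38 CPM in Chat positive and 29.0 ± 5.68 CPM in Chat negative cells. Neither overlapped between the gates, nor did Dlg1, and 3.61% of all genes tested were separated in this direction. Frmd8, a partner of iRhoms, stood at 139.7 ± 10.6 CPM in Chat positive and 154 ± 12.4 CPM in Chat negative cells, and Tspan14, the most abundant tetraspanin of the list, at 237 ± 30.3 CPM in Chat positive and 255 ± 29.8 CPM in Chat negative cells.

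Other ADAM proteases included more abundant transcripts than Adam17. Adam8, a leukocyte protease, stood at 1077 ± 56.2 CPM in Chat positive and 1110.3 ± 82.2 CPM in Chat negative cells. Adam19 stood at 368, 416 and 390.1 CPM in Chat positive 1, 2 and 3, against 461, 453 and 461 CPM in Chat negative 1, 2 and 3, with no overlap and a log2 difference of -0.23 (SE 0.09, edgeR adjusted p = 1.00). Of 9 listed, 6 were tested, none passed and 2 lay above 0. Among the inhibitors of metalloproteases, Timp3, which blocks ADAM17, stood at 8.09 ± 1.83 CPM in Chat positive and 5.32 ± 1.55 CPM in Chat negative cells, with no overlap. Reck, a membrane-anchored inhibitor, stood at 8.91 ± 1.70 CPM in Chat positive and 10.8 ± 3.20 CPM in Chat negative cells. None of the 4 inhibitors tested passed, and Timp4 had 0 counts in all 6 libraries.

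Known substrates of these sheddases were tested for 16 of 25 listed genes, and none passed, with 6 above 0 and 10 below. Notch1, cut by ADAM10, stood at 107, 113 and 108 CPM in Chat positive 1, 2 and 3, against 117, 130.2 and 136 CPM in Chat negative 1, 2 and 3, with no overlap. Il1r2, the decoy receptor for interleukin 1, stood at 1224 ± 282 CPM in Chat positive and 1003 ± 155 CPM in Chat negative cells. Il2ra, the most abundant of the list, stood at 4654 ± 952 CPM in Chat positive and 4397 ± 1197 CPM in Chat negative cells. Vcam1 and Havcr1 had 0 counts in all 6 libraries.

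Furin (Entrez 18550, chromosome 7, 80389194 to 80405441) was the most abundant of the 8 genes, at 0.289% to 0.425% of all counts of a library. It stood at 4266, 3072 and 3750.1 CPM in Chat positive 1, 2 and 3, against 3348, 2871 and 3262 CPM in Chat negative 1, 2 and 3. Each number was higher in Chat positive cells, by 0.35, 0.10 and 0.20 on the log2 scale, but Chat positive 2 lay below Chat negative 1 and 3, so the gates overlapped. The means were 3696 ± 599 CPM in Chat positive and 3160.4 ± 254 CPM in Chat negative cells (SD, n = 3 each), with a log2 difference of 0.23 (SE 0.15, edgeR adjusted p = 1.00). Antisense exons of Gm44851 cover 118 bases of Furin exons.

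Other proprotein convertases were far below Furin. Per kilobase of the longest transcript, Furin averaged 644 CPM in Chat positive and 551 CPM in Chat negative cells, while Mbtps1, the site-1 protease that activates membrane-bound transcription factors, averaged 21.4 CPM per kilobase in Chat positive and 22.7 CPM per kilobase in Chat negative cells. Mbtps1 stood at 145 ± 7.88 CPM in Chat positive and 154 ± 10.5 CPM in Chat negative cells. Pcsk1, a convertase of prohormones, stood at 8.02 ± 1.82 CPM in Chat positive and 6.33 ± 3.72 CPM in Chat negative cells. The list also holds genes that are not convertases. Besides Furin, 7 of its genes were tested, none passed and 2 lay above 0, and Pcsk6 had 0 counts in all 6 libraries.

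**Figure D3:**
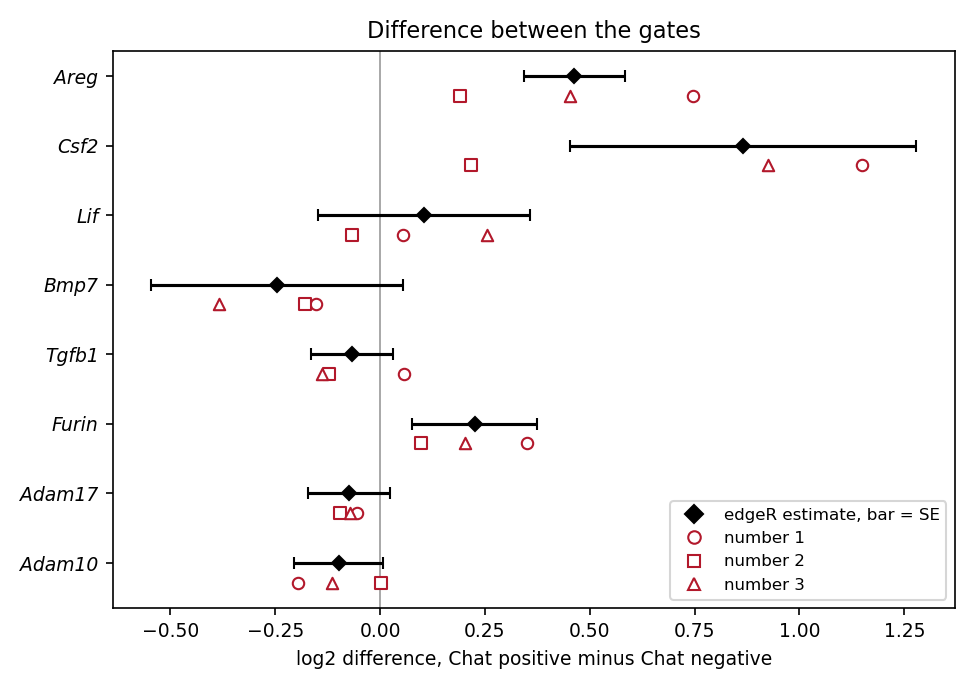
Log2 difference between the gates for the 8 genes, as the edgeR estimate with its SE (diamonds) and as the plain difference of log2(CPM + 0.5) within each replicate number (open symbols). Csf2 has the largest estimate, 0.87, and the widest bar, 0.41, and number 2 has the smallest difference of its 3 numbers at 0.22.

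Csf2 (Entrez 12981, chromosome 11, 54247270 to 54249899) encodes GM-CSF, which acts on myeloid cells such as macrophages, dendritic cells and eosinophils. It stood at 62.1, 27.0 and 81.5 CPM in Chat positive 1, 2 and 3, against 27.7, 23.2 and 42.6 CPM in Chat negative 1, 2 and 3. Numbers 1 and 3 differed by 1.15 and 0.93 on the log2 scale and number 2 by 0.22, and Chat positive 2 lay below Chat negative 1 and 3. The means were 56.8 ± 27.6 CPM in Chat positive and 31.2 ± 10.2 CPM in Chat negative cells (SD, n = 3 each), a 1.82-fold difference. The log2 difference of 0.87 (SE 0.41) was the largest in size of the 8 genes, with an edgeR adjusted p of 1.00. Leaving out Chat positive 3 lowered it to 0.50, and leaving out Chat positive 2 gave 1.20. Gm12223, annotated antisense, shares 96 bases with Csf2 exons.

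Il3, whose gene lies 15.2 kb from Csf2 in the type 2 cytokine region, had 0 counts in all 6 libraries. By counting error alone, 3 counts could still be missed, which is 0.0807 CPM in the library with the fewest counts. Of 13 colony stimulating factors and their receptors 8 were tested, none passed and 5 lay above 0. Csf1, the macrophage growth factor, stood at 19.1, 3.05 and 16.3 CPM in Chat positive 1, 2 and 3, against 30.3, 3.57 and 33.7 CPM in Chat negative 1, 2 and 3, so number 2 was lowest in both gates. Kitl, the ligand of KIT, stood at 7.14 ± 4.64 CPM in Chat positive and 4.76 ± 2.54 CPM in Chat negative cells. Csf2ra, the GM-CSF receptor chain, stood at 2.94 ± 0.261 CPM in Chat positive and 2.43 ± 0.185 CPM in Chat negative cells, with no overlap. Genes running most like Csf2 over the 6 libraries were Selenok (r = 0.996), Birc3 (0.989), Dctn3 (0.987), Ndufa7 (0.987) and Paip2 (0.987), chosen and limited as for Areg.

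Lif (Entrez 16878, chromosome 11, 4257568 to 4272514) encodes leukemia inhibitory factor, an interleukin 6 family cytokine that signals through LIFR and the shared chain IL6ST. It stood at 116, 73.6 and 136 CPM in Chat positive 1, 2 and 3, against 112, 77.2 and 114 CPM in Chat negative 1, 2 and 3. Number 2 was lowest in both gates, as for 29.6% of genes tested, and the gates overlapped. The log2 difference was 0.10 (SE 0.25, edgeR adjusted p = 1.00), and its sign turned to -0.11 without Chat positive 3 and to -0.06 without Chat negative 2.

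Of the 14 genes of the LIF and interleukin 6 family, 8 were tested, none passed and 7 lay above 0. Osm, oncostatin M, was the most abundant, at 535, 405 and 532 CPM in Chat positive 1, 2 and 3, against 439, 359.9 and 484 CPM in Chat negative 1, 2 and 3. Il6 stood at 7.40, 4.41 and 13.4 CPM in Chat positive 1, 2 and 3, against 4.84, 3.85 and 5.72 CPM in Chat negative 1, 2 and 3. Both had the larger value in Chat positive cells within each number, and both overlapped between the gates. Il6st was the 1 tested gene of the list below 0, at 28.8 ± 3.54 CPM in Chat positive and 37.7 ± 5.97 CPM in Chat negative cells (SD, n = 3 each). Osmr, the oncostatin M receptor, averaged 0.407 CPM in Chat positive and 0.140 CPM in Chat negative cells, and Lifr, the receptor of LIF, had at most 7 counts in a library.

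Tgfb1 (Entrez 21803, chromosome 7, 25687002 to 25705077) encodes TGF-beta 1, a latent regulator of inflammation and tissue remodelling. It stood at 349, 327 and 299.8 CPM in Chat positive 1, 2 and 3, against 335, 356 and 330.3 CPM in Chat negative 1, 2 and 3. Only number 1 was higher in Chat positive cells, the gates overlapped, and the log2 difference was -0.07 (SE 0.10, edgeR adjusted p = 1.00). Per kilobase it averaged 126 ± 9.50 CPM in Chat positive and 132 ± 5.21 CPM in Chat negative cells (SD, n = 3 each).

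Bmp7 (Entrez 12162, chromosome 2, 172868012 to 172940321) encodes a bone morphogenetic protein known from kidney and epithelial development. It stood at 154, 82.6 and 129 CPM in Chat positive 1, 2 and 3, against 171, 93.6 and 169 CPM in Chat negative 1, 2 and 3. Each number was lower in Chat positive cells, with log2 differences of -0.15, -0.18 and -0.38, but number 2 was lowest in both gates and the gates overlapped. The log2 difference was -0.25 (SE 0.30, edgeR adjusted p = 1.00), and it was -0.03 without Chat positive 2 and -0.48 without Chat negative 2. The 5 epithelial markers listed summed to 59.2, 34.4 and 54.7 CPM in Chat positive 1, 2 and 3, against 89.0, 37.4 and 89.6 CPM in Chat negative 1, 2 and 3. Of these 5, Epcam held most of the sum, while Krt8 had at most 2 counts and Krt19 at most 31 counts in a library. Their part in the Bmp7 result was not tested.

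The other ligands of the TGF-beta and BMP family were less abundant. Besides Tgfb1 and Bmp7, 7 of the 16 genes listed were tested, none passed and 4 lay above 0. These 7 include Bmp1, which lay below 0 and encodes a protease and not a ligand. Bmp2 stood at 39.6 ± 6.47 CPM in Chat positive and 49.2 ± 9.65 CPM in Chat negative cells, and Tgfb3 at 12.8 ± 3.35 CPM in Chat positive and 10.3 ± 1.44 CPM in Chat negative cells. Inha, an inhibin subunit, stood at 2.35 ± 0.997 CPM in Chat positive and 1.21 ± 1.03 CPM in Chat negative cells. Genes that hold or activate latent TGF-beta had 7 of 11 tested with none passing. Nrros, which tethers latent TGF-beta on leukocytes, stood at 393 ± 17.7 CPM in Chat positive and 431 ± 22.8 CPM in Chat negative cells. Itgav, the integrin chain shared by its activators, stood at 125 ± 27.6 CPM in Chat positive and 156 ± 50.3 CPM in Chat negative cells. Ltbp1, a matrix tether, averaged 1.19 CPM in Chat positive and 1.88 CPM in Chat negative cells, with no overlap. Itgb8 averaged 2.50 CPM in Chat positive and 1.23 CPM in Chat negative cells, and Itgb6 had 0 counts in all 6 libraries.

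All 24 listed receptors, SMADs and regulators of TGF-beta and BMP signals were tested and none passed. Of these, 7 lay above 0 and 17 below, with a median log2 difference of -0.09. Some of the 24, such as the inhibitory SMADs, restrain these signals and do not carry them. Tgfbr2, the TGF-beta receptor chain that binds ligand, stood at 589 ± 85.7 CPM in Chat positive and 694 ± 172 CPM in Chat negative cells, lower for 3 of 3 numbers. Smad3 stood at 67.3, 62.8 and 69.4 CPM in Chat positive 1, 2 and 3, against 77.0, 76.2 and 74.0 CPM in Chat negative 1, 2 and 3, with no overlap. Smad1, which carries BMP signals, stood at 31.6 ± 3.85 CPM in Chat positive and 37.4 ± 0.929 CPM in Chat negative cells, also with no overlap. The activin receptor Acvr2a, which also binds BMP7, stood at 114 ± 29.7 CPM in Chat positive and 128 ± 32.6 CPM in Chat negative cells.

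Growth factors outside these families had 11 of 25 listed genes tested, with none passing and 5 above 0. Vegfc, a growth factor of lymphatic vessels, stood at 67.6, 68.2 and 71.7 CPM in Chat positive 1, 2 and 3, against 50.9, 59.6 and 49.1 CPM in Chat negative 1, 2 and 3. Those gates did not overlap, at a log2 difference of 0.38 (SE 0.11, edgeR adjusted p = 1.00). Grn and Mif, the most abundant, stood at 158 ± 50.5 and 144 ± 17.7 CPM in Chat positive cells, against 179 ± 46.8 and 152 ± 19.8 CPM in Chat negative cells. Igf1 and Fgf10 had 0 counts in all 6 libraries.

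Genes known to act upstream of Areg or to activate ILC2s had 20 of 24 tested, with none passing, 7 above 0 and 13 below. Batf, an AP-1 family factor, stood at 371, 320.5 and 384 CPM in Chat positive 1, 2 and 3, against 278, 296 and 314 CPM in Chat negative 1, 2 and 3, with no overlap. Il1rl1, the receptor for interleukin 33, stood at 133, 82.0 and 159 CPM in Chat positive 1, 2 and 3, against 79.1, 58.6 and 119.9 CPM in Chat negative 1, 2 and 3. When the replicate number was blocked, Il1rl1 passed edgeR's test (log2 difference 0.55, adjusted p = 0.0420), in a fit that called 0.339% of genes but not Chat. It did not pass with the same block in limma-voom (adjusted p = 0.0856) or in edgeR without robust dispersions (adjusted p = 0.104). Nr4a1, an immediate early gene, stood at 42.4 ± 11.6 CPM in Chat positive and 35.3 ± 1.52 CPM in Chat negative cells. Fos stood at 3.41 ± 0.417 CPM in Chat positive and 4.35 ± 0.550 CPM in Chat negative cells.

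Over all these lists, 135 of 202 genes other than the 8 were tested, and none passed edgeR's test in either direction. The log2 difference was above 0 for 57 and below 0 for 78, with a median of -0.04 against 0.00 over all genes tested. The gates did not overlap for 8 in each direction, where 4.53% of all genes tested were separated upwards and 3.61% downwards. A gene that stands in several lists counts once.

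Levels of the 8 genes can be ordered per kilobase of the longest transcript. Furin came first, at 501 to 744 CPM per kilobase over 6 libraries, then Areg at 182 to 305 and Tgfb1 at 117 to 138, and none of these ranges overlapped. Csf2 followed with a wide range of 29.0 to 102 CPM per kilobase, which covered Adam10, at 47.9 to 57.1, and Adam17, at 37.8 to 44.9. Adam10 and Adam17 did not overlap each other. Bmp7, at 22.5 to 46.7 CPM per kilobase, overlapped Adam17, and Lif, at 18.3 to 33.8, overlapped Bmp7. This order depends on the length used. With the median length of its 5 annotated transcripts, Tgfb1 averaged 475 CPM per kilobase, above Areg at 238. With median lengths Adam10, Adam17 and Bmp7 averaged 137, 60.8 and 57.3 CPM per kilobase, all above Csf2 at 55.0.

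A fit that blocks on the replicate number leaves the spread between numbers out of the error, and edgeR then called 44 genes in all, or 0.339%, and none of the 8. Without robust dispersions the same block gave 1 call. In the edgeR fit with the block and robust dispersions, Areg, Furin, Bmp7 and Csf2 had unadjusted p under 0.05, as did 16.5% of genes tested. Their blocked log2 differences were 0.46, 0.22, -0.24 and 0.78, with edgeR adjusted p of 0.139, 0.124, 0.139 and 0.181. The same 4 had unadjusted p under 0.05 in limma-voom with the block and in edgeR without the libraries of number 2, where 16.1% and 8.86% of genes did. Neither fit called any of the 8, with 0.00771% and 0.0154% of genes called.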

How the data were processed

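The 6 libraries were made from sorted cells with the Clontech SMARTer kit for ultra low RNA input, per the labels' protocols. The table the authors deposited holds raw counts per Entrez gene, as its values are whole and its column sums differ. Versions CASAVA 1.8.2 and STAR 2.3.0 and the build mm10 come from the submitters' processing notes. The counting program and its strand setting: not given in the sources used here. Symbols and coordinates for 25275 of 27179 IDs came from RefSeq's GRCm38.p6 table, and the remaining 1904 held at most 0.222% of a library's counts. Replicates differed beyond sampling noise, with a chi-square of at least 31.4 for each degree of freedom.

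After edgeR's filterByExpr and TMM scaling, the gates were compared by the robust quasi-likelihood test of edgeR 4.0.16 (R 4.3.3), without a block, with p-values adjusted by Benjamini-Hochberg over 12967 genes. The SE is the one implied by the F statistic. Within-library ratios got exact permutation tests. Lengths are of GENCODE vM21 transcripts, and sequences are RefSeq's. The fits were tested on simulated data, where DESeq2 made more false calls than its threshold allows. There edgeR and limma-voom stayed under a limit looser than that threshold. The simulated counts held no effect of the replicate number, so they cannot show how the fits behave where number 2 stands apart. Deviations from the gate mean correlated across genes within numbers 1, 2 and 3 at 0.39, 0.78 and 0.52. The number was added as a block in an alternative, although no label gives a pairing. Chat negative 1 correlated more with Chat positive 3 (0.42) than with its own number, and Chat negative 3 with Chat positive 1 at 0.29. With number 2 apart in both gates, these values cannot show that the libraries of number 1, or of number 3, are pairs. Other alternatives were DESeq2 1.42.0, limma-voom (limma 3.58.1), other scalings and filters, and leaving out each library. Fits without the libraries of number 2, and the block in limma-voom or without robust dispersions, were added after seeing the data.

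The 8 genes, the lists and the tests were chosen with earlier results of these data known. Named beside the 8 are, per pathway list, genes among the 4 with the smallest edgeR p or the 2 most abundant, genes with no count, and the 5 most like Areg and Csf2. Regulators upstream of Areg were picked in the same way, although the rule did not list them. Bmp1, Btc, Epgn, Lifr, Krt8, Krt19, Cd3e, Trac, Cd4, Thy1 and Il17rb fall outside the rule and were named after their values were seen.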

Additional observations from a re-analysis of the deposited data

How the results depend on the processing

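No setting called any of the 8 genes, and the log2 difference kept its sign in 134 of 136 settings of single genes, the 2 exceptions being Lif, which ranged from -0.11 to 0.32 when 1 library was left out. The number of genes called was 1 at first, 44 with the replicate block in edgeR, 4 in DESeq2, 2 without the libraries of number 2, and 0 to 1 when 1 library was left out. It was 1 with the replicate block in limma-voom and 1 in edgeR with the block and no robust dispersions. With the block in edgeR, Chat itself had an adjusted p of 0.0961. The block changed no call among the 8 genes. Areg ranged from 0.38 to 0.60 over its 17 alternatives, with adjusted p from 0.137 to 1.00, the 0.60 coming without the libraries of number 2. Leaving out 1 library also turned the log2 difference of 13 of 64 other named genes: -0.37 to 0.0166 for Acvr2a, -0.64 to 0.23 for Adam22, -0.0998 to 0.0051 for Adam8, -0.12 to 0.0176 for Flt3l, -0.40 to 0.0518 for Grn, -0.42 to 0.0306 for Hbegf, -0.30 to 0.0385 for Hif1a, -0.0273 to 0.0867 for Icos, -0.10 to 0.33 for Il2ra, -0.0137 to 1.09 for Kitl, -0.0227 to 0.17 for Map2k3, -0.15 to 0.0313 for Mif and -0.0104 to 0.19 for Ptprc. The log2 ratio of Adam17 to Adam10 ranged from -0.0088 to 0.0681, turning without Chat positive 1, and that of Areg to Adam17 from 0.45 to 0.64. The causes were not tested. With 3 samples in each gate and at least 1005 counts of every one of the 8 genes in a library, the samples limit the precision more than the depth. Overlap with a gene on the other strand limits Adam17, Furin and Csf2, and transcript length limits the order of levels per kilobase.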
